A study of Bos taurus with 5 samples.

Results

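AMP-activated protein kinase (AMPK) is the energy sensor of the cell, and its 7 subunit genes were followed here in the back muscle of cattle. Members were the rows of the deposited table whose gene symbol was PRKAA1 or PRKAA2 (alpha subunits), PRKAB1 or PRKAB2 (beta subunits), or PRKAG1, PRKAG2 or PRKAG3 (gamma subunits). All 7 genes were listed, with 8 transcripts, out of 9022 genes and 13391 transcripts in all. The samples were longissimus dorsi, the long back muscle, of 5 Jiaxian Red cattle aged 18 months, with 1 RNA library per animal. No treatment or genotype was given, so the 5 libraries formed 1 group and no condition could be compared. Values are FPKM, in which fragment numbers are corrected for the length of the transcript and the size of the library; the transcripts of a gene were added up. Because FPKM is scaled by length, the subunit genes can be set against each other within a library.

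AMPK is a complex of 1 alpha, 1 beta and 1 gamma subunit. The alpha subunit carries the kinase domain and is switched on by phosphorylation of its activation loop. The beta subunit holds the complex together and has a module that binds glycogen, and the gamma subunit binds AMP, ADP and ATP and so reads the energy state. In skeletal muscle the kinase responds to contraction, favours glucose uptake and fat oxidation, and restrains the synthesis of fat and protein. The gamma 3 isoform is known as the skeletal muscle form, typical of fast glycolytic fibres, and variants of its gene alter muscle glycogen in pigs.

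The labelled tissue could be checked against marker genes. Of 10 muscle fibre markers 8 were listed, all above a mean of 1 FPKM, and together they summed to between 16513 and 19300 FPKM per library. The single fibre markers differed widely, from a mean of 16.2 FPKM for CKM to 5134 for ACTA1. MB stood at 766 FPKM in library 5 and at 106 to 214 elsewhere. The other cell types were also represented: the summed level per library was 77.9 to 90.3 FPKM for 5 listed endothelial markers, 316 to 651 for 2 fibroblast markers, 36.5 to 88.7 for 5 smooth muscle and pericyte markers, and 1.77 to 3.97 for 2 leukocyte markers. Of the 5 adipocyte markers only CIDEC was listed, at most 0.809 FPKM. In such bulk tissue the AMPK genes may be read from any of these cells, and fewer cells of a type cannot be told apart from less RNA per cell. The table gave no counts, so read depth was unknown; summed FPKM per library ran from 193706 to 223251.

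All subunit classes were expressed, and in each of the alpha and beta classes the isoform numbered 2 was the higher one in every animal. PRKAA2, the alpha 2 catalytic subunit, was the most abundant member at 36.9 ± 5.19 FPKM, followed by PRKAB2, the beta 2 subunit, at 17.2 ± 6.18 FPKM (SD, n = 5). PRKAB1 and PRKAA1, the beta 1 and alpha 1 subunits, came next at 7.60 ± 0.910 and 7.26 ± 1.85 FPKM. The gamma subunit genes PRKAG1 and PRKAG2 were lower, at 4.32 ± 0.505 and 4.04 ± 2.19 FPKM. PRKAG3 was the lowest at 0.437 ± 0.154 FPKM and the only member under a mean of 1 FPKM, the detection limit used here; its first-numbered transcript was not analysed, so this level may be partial. The median of the 7 means was 7.26 FPKM, against 3.05 FPKM over all 9022 genes.

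**Figure D1:**
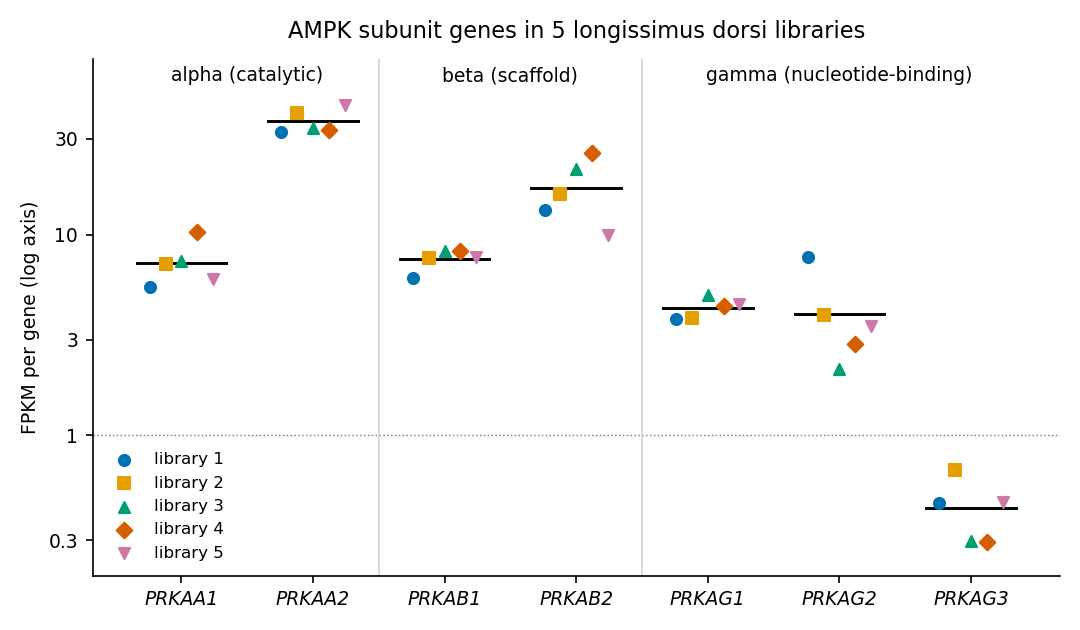
FPKM of the 7 AMPK subunit genes (log axis) in each of 5 longissimus dorsi libraries; each symbol is 1 library, black bars are means and the dotted line marks 1 FPKM. PRKAA2 and PRKAB2 were highest in every library, PRKAG2 stood at 7.75 in library 1 and at most 3.96 in the others, and PRKAG3 stayed below 1 throughout.

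PRKAA1 encodes the alpha 1 catalytic subunit, which is present in most tissues. Its only listed transcript, PRKAA1-201, had the gene identifier ENSBTAG00000000013 and was placed by the table on chromosome 20, from 33674806 to 33700485. Its level was 5.504, 7.12, 7.37, 10.3 and 6.02 FPKM in libraries 1 to 5. Library 4 was the highest and library 1 the lowest, 1.86-fold apart, and libraries 2 and 3 lay close to the mean. Among the 6136 genes with a mean of at least 1 FPKM, the level of PRKAA1 exceeded 54.1% of them on average, from 45.3% within library 1 to 65.4% within library 4.

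PRKAA2 encodes alpha 2, the catalytic subunit that predominates in skeletal muscle. The gene, ENSBTAG00000018747, lay on chromosome 3 from 89477899 to 89549744, with PRKAA2-201 as its only listed transcript. It stood at 32.4, 40.5, 34.1, 33.3 and 44.2 FPKM in libraries 1 to 5. These values formed a narrow range, 1.36-fold from lowest to highest, with libraries 2 and 5 above the other 3. Its mean exceeded that of 90.2% of detected genes.

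PRKAA2 was above PRKAA1 in 5 of 5 libraries. The FPKM ratio was 5.89, 5.69, 4.62, 3.25 and 7.34 in libraries 1 to 5. The excess was smallest in library 4, where PRKAA1 was highest, and greatest in library 5, where PRKAA2 was highest. On the log2(FPKM + 1) scale the mean ratio was 2.22 ± 0.40 (SD, n = 5; exact two-sided sign-flip permutation test, p = 0.0625, the smallest value that 5 libraries allow). As background, 32.7% of the other detected genes were above PRKAA1 in 5 of 5 libraries and 40.1% were below it in all 5, so a constant direction against PRKAA1 was common. PRKAA2 thus made up 76.5% to 88.0% of the summed alpha FPKM, a mean of 83.4% ± 4.41.

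The beta subunits showed the same order with a smaller gap. PRKAB1 (ENSBTAG00000005940), on chromosome 17 from 55750475 to 55759908, was read from the transcript PRKAB1-201. It stood at 6.07, 7.63, 8.26, 8.32 and 7.74 FPKM in libraries 1 to 5. The last 4 libraries lay within 1.09-fold of each other and library 1 lay below them. PRKAB2 (ENSBTAG00000014387), on chromosome 3 from 22529588 to 22542857, is the beta isoform known from skeletal muscle. It stood at 13.3, 15.9, 21.2, 25.5 and 10.02 FPKM in libraries 1 to 5. Libraries 3 and 4 were high and library 5 was low, a range of 2.54-fold.

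PRKAB2 exceeded PRKAB1 in 5 of 5 libraries, by 1.29 times in library 5 and by 2.09 to 3.06 times in the others. The mean log2 ratio was 1.02 ± 0.44 (SD, n = 5; exact two-sided sign-flip permutation test, p = 0.0625). Of the other detected genes 35.2% lay above PRKAB1 in every library. PRKAB2 gave 68.0% ± 7.15 of the beta sum, from 56.4% in library 5 to 75.4% in library 4. The only PRKAB2 transcript in the table carried the number 203, so lower-numbered transcripts were not analysed here and the sum may be partial.

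No order could be given for PRKAG1 and PRKAG2, the gamma 1 and gamma 2 subunit genes. PRKAG1 (ENSBTAG00000014426), on chromosome 5 from 30799602 to 30814717, encodes the widely expressed gamma subunit. Its only listed transcript, PRKAG1-201, stood at 3.79, 3.86, 5.01, 4.41 and 4.52 FPKM in libraries 1 to 5. It was the member with the smallest relative range, 1.32-fold. PRKAG2 (ENSBTAG00000002917), on chromosome 4 from 114086044 to 114320570, encodes gamma 2, whose variants are known from heart disease with glycogen storage. It stood at 7.75, 3.96, 2.13, 2.84 and 3.504 FPKM in libraries 1 to 5, the widest range of the 7 at 3.63-fold. Library 1 set much of that range, since libraries 2 to 5 were 1.86-fold apart.

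PRKAG1 was above PRKAG2 in libraries 3, 4 and 5 and below it in libraries 1 and 2. The FPKM ratio ran from 0.489 in library 1 to 2.35 in library 3, and the mean log2 ratio was 0.17 ± 0.68 (SD, n = 5; exact two-sided sign-flip permutation test, p = 0.625). Without library 3 the mean ratio turned to -0.03. PRKAG2 held 64.6% of the gamma sum in library 1 and 28.7% in library 3.

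The PRKAG2 signal came almost wholly from 1 of its 2 listed transcripts. PRKAG2-201 stood at 7.53, 3.94, 2.13, 2.84 and 3.41 FPKM in libraries 1 to 5. PRKAG2-202, which spans a longer interval with the same lower coordinate, stood at 0.217, 0.0187 and 0.0959 FPKM in libraries 1, 2 and 5 and was listed at 0 in libraries 3 and 4. It gave at most 2.80% of the gene's FPKM in any library. The high value of library 1 was therefore present in the main transcript. A listed 0 in such estimates does not show that a transcript was missing. The log2 ratio of the transcripts, set by the added 1 FPKM at such low values, was 2.14 ± 0.44 (SD, n = 5; exact two-sided sign-flip permutation test, p = 0.0625).

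PRKAG3, the gene of the muscle-typical gamma 3 subunit, was listed at a low level. The gene, ENSBTAG00000013492, lay on chromosome 2 from 106788345 to 106794299 and stood at 0.461, 0.669, 0.297, 0.295 and 0.464 FPKM in libraries 1 to 5. Library 2 was the highest, and libraries 3 and 4 were the lowest and nearly equal. PRKAG1 was above PRKAG3 in 5 of 5 libraries, by 5.77 to 16.9 times, and so was PRKAG2, by 5.92 to 16.8 times. The mean log2 ratios were 1.89 ± 0.27 for PRKAG1 and 1.72 ± 0.50 for PRKAG2 (SD, n = 5; exact two-sided sign-flip permutation test, p = 0.0625 for each). This says little of PRKAG3 in particular, since 93.1% of the 6136 detected genes lay above it in every library. Its only listed transcript was PRKAG3-202. PRKAG3-201 was not analysed here, so the value cannot be taken as the level of the whole gene, and neither can the share of 3.84% to 7.88% that PRKAG3 took of the gamma sum.

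Summed by class, alpha was the highest and gamma the lowest in 5 of 5 libraries. The alpha sum was 44.2 ± 4.90 FPKM, the beta sum 24.8 ± 6.76 and the gamma sum 8.79 ± 1.86 (SD, n = 5). Alpha exceeded beta by 1.29 times in library 4 to 2.83 times in library 5, and beta exceeded gamma by 1.61 times in library 1 to 4.48 times in library 4. The gamma sum was 12.002 FPKM in library 1 and 7.44 to 8.49 in the others, and gamma took 17.3% of the 7-gene sum in library 1 against 8.88% to 11.1% elsewhere. The sum of all 7 genes varied little, from 69.3 FPKM in library 1 to 84.9 in library 4. The beta and gamma sums each include a gene whose lower-numbered transcripts were not analysed here, so both may be too low. Class sums were computed after the single genes had been seen and were not tested.

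**Figure D2:**
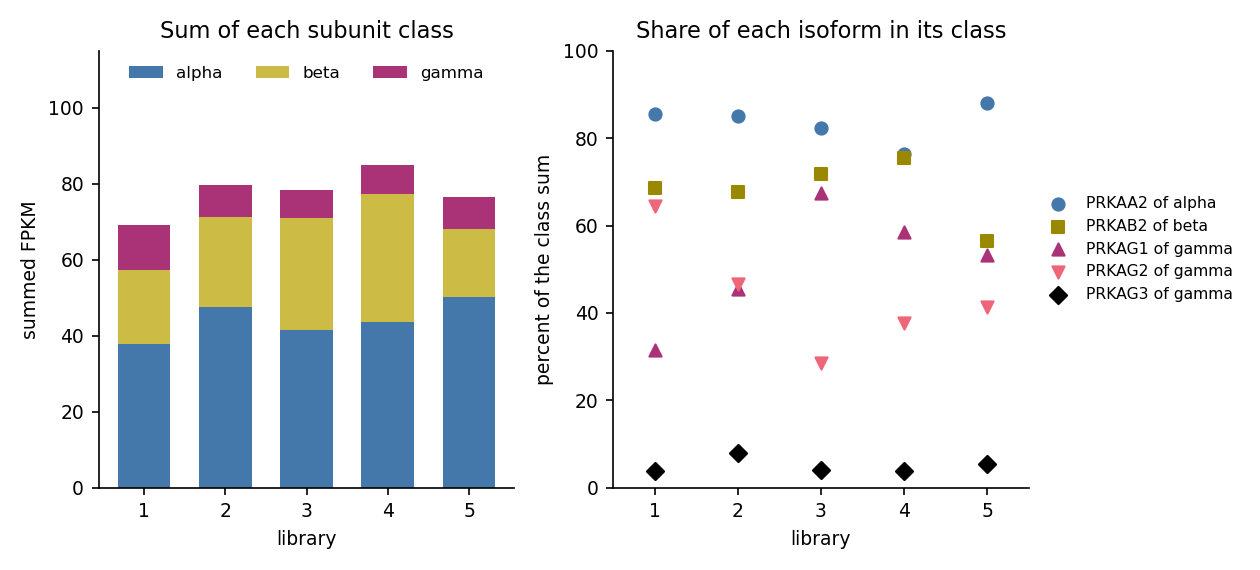
Left, summed FPKM of the alpha, beta and gamma subunit genes in each library, stacked from 0; right, percent of the class sum held by each isoform, 1 point per library. Alpha was the largest class in every library, PRKAA2 held 76.5% to 88.0% of it, and PRKAG1 and PRKAG2 changed places between libraries.

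Placed in 1 order by mean, neighbouring members separated in some steps and not in others. PRKAA2 lay above PRKAB2 in 5 of 5 libraries, by 1.31 to 4.41 times. PRKAA1 lay above PRKAG1 in 5 of 5, by 1.33 to 2.33 times. Of the other detected genes 40.1% lay below PRKAA1 in every library, and no such share was computed for PRKAB2. The order was set by the same values, so a constant direction is partly built in. PRKAB1 and PRKAA1 did not differ beyond their spread: PRKAB1 was higher in 4 libraries and lower in library 4, with an FPKM ratio of 0.811 to 1.29. The first 2 places, PRKAA2 then PRKAB2, and the last, PRKAG3, were the same in all 5 libraries. In library 1 PRKAG2 took the third place, ahead of PRKAB1 and PRKAA1.

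The subunit genes differed in which libraries were high and which were low. PRKAA1 and PRKAB2 shared the order library 4, then 3, then 2 at the top, with library 4 at 0.47 and 0.61 above their own means on the log2(FPKM + 1) scale. PRKAA2 was 0.13 below its mean in library 4 and highest in library 5, at 0.26 above it, where PRKAB2 was lowest, at -0.65. PRKAG2 was 0.89 above its mean in library 1, where PRKAA1, PRKAA2, PRKAB1, PRKAB2 and PRKAG1 all lay below theirs. PRKAG2 and PRKAG3 were below their means in libraries 3 and 4, where PRKAB1, PRKAB2, PRKAA1 and PRKAG1 were above. Library 1 had 2 of 7 members above their own mean, library 2 had 5, and libraries 3, 4 and 5 had 4 each. The libraries give 5 points for each gene, too few for a correlation.

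**Figure D3:**
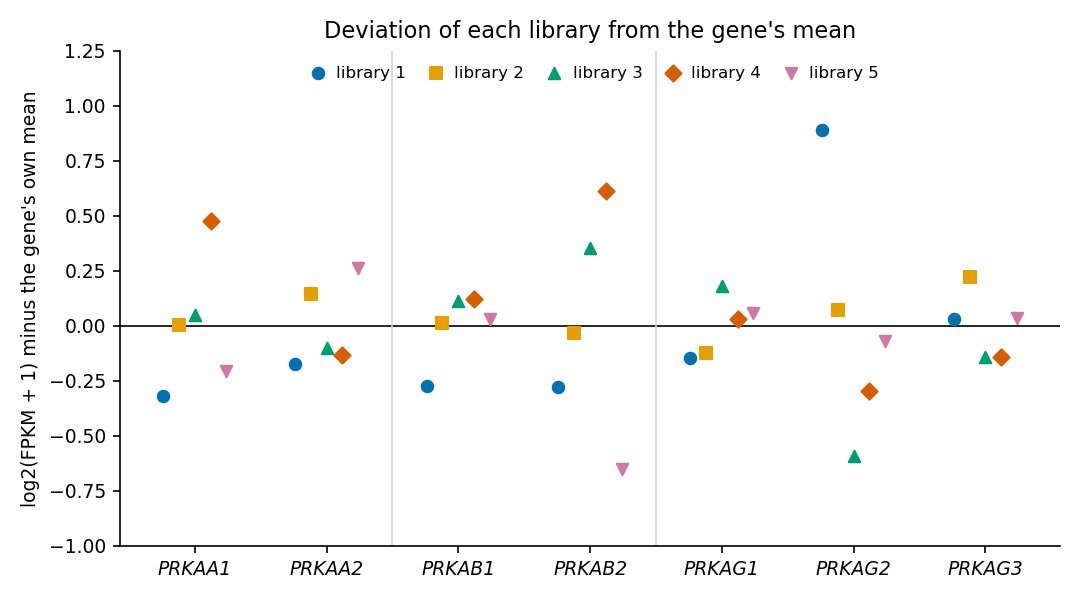
Deviation of each library from the gene's own mean on the log2(FPKM + 1) scale, for the 7 AMPK subunit genes; each symbol is 1 library. The points of PRKAG2 and PRKAB2 are spread widest, with library 1 at 0.89 for PRKAG2, while those of PRKAG1 lie between -0.14 and 0.18.

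The spread between libraries differed from member to member. With 1 library per animal, differences between animals could not be told apart from those of sampling or sequencing. The SD of log2(FPKM + 1) over the 5 libraries was 0.56 for PRKAG2, 0.50 for PRKAB2, 0.30 for PRKAA1, 0.19 for PRKAA2, 0.16 for PRKAB1, 0.15 for PRKAG3 and 0.14 for PRKAG1. The median over the 7 was 0.19, against 0.23 over all 9022 genes. Set against genes within 2-fold of the same mean level, the SD of PRKAB2 exceeded that of 90.8% of 1812 genes and the SD of PRKAG2 that of 85.0% of 2586 genes. PRKAG1 was among the even genes, with a greater SD than only 16.0% of 2622 genes of like level. PRKAA1 lay nearer the middle, above 67.5% of 2653 genes.

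Single libraries set part of these spreads. The SD of PRKAG2 fell to 0.29 without library 1, that of PRKAA1 to 0.17 without library 4, that of PRKAB1 to 0.057 without library 1 and that of PRKAG3 to 0.10 without library 2. The SD of PRKAB2 lay between 0.40 and 0.58 whichever library was left out. With the added 1 FPKM lowered to 0.1, the SD of PRKAG3 was 0.40, so its small SD held only with 1 FPKM added. PRKAB1 was the only one of the 6 detected members with a library standing apart by Dixon's gap ratio (the distance of an end value to its neighbour over the whole range), against a background of 7.37% of detected genes. On the FPKM scale its gap ratio was 0.692 in place of 0.720, which no longer passed. It still passed on the log2 scale with 0.1 FPKM added, at 0.724. The same held with libraries rescaled to the same total, at 0.736, and with median-ratio size factors, at 0.798.

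**Figure D4:**
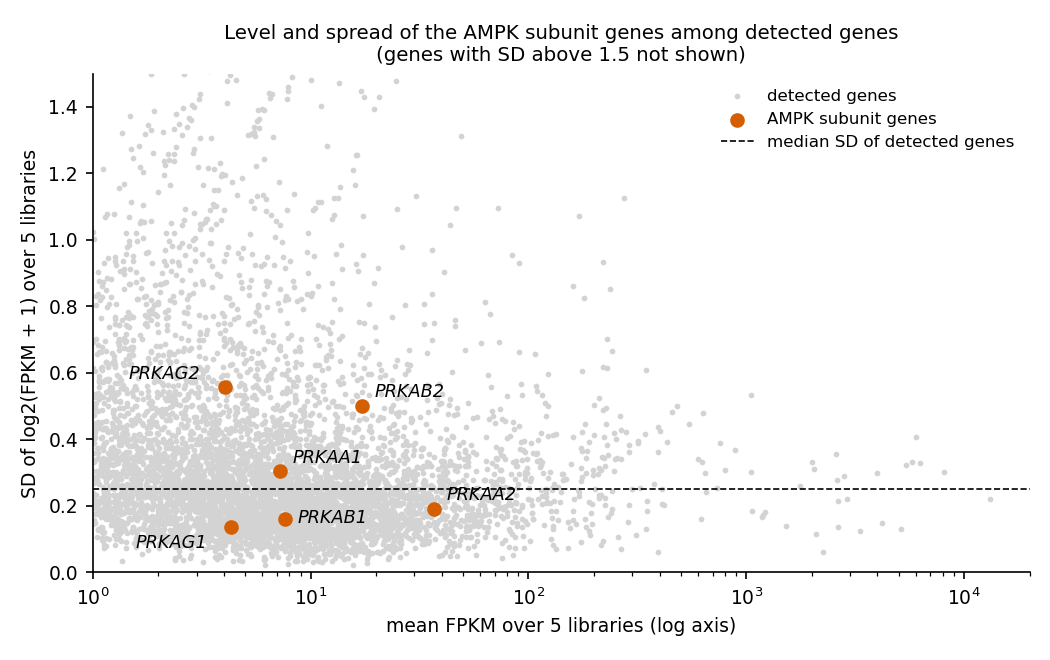
Mean FPKM (log axis) against the SD of log2(FPKM + 1) over 5 libraries; grey points are detected genes, orange points the 6 detected AMPK subunit genes, and the dashed line the median SD of detected genes, 0.25. PRKAG2 and PRKAB2 lie above the line and PRKAG1, PRKAB1 and PRKAA2 below it; 58 genes with an SD above 1.5 are not shown.

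Markers of other cells were set beside the high PRKAG2 value of library 1. The smooth muscle and pericyte markers were also highest there, at a summed 88.7 FPKM against 36.5 to 70.1 in the other libraries. So were the endothelial sum, 90.3 FPKM, and the leukocyte sum, 3.97, while the muscle fibre sum was lowest, 16513. The summed FPKM of the table was also lowest in library 1, 193706, and the marker sums were not rescaled to it. The endothelial sum was nearly as high in library 5, at 89.3 FPKM. EGFL7, EMCN and PTPRC were highest in library 1, and CDH5, PECAM1, VWF and CD3E were not. The fibre markers TNNC1, MYLPF and MB were lowest in library 1, while MYH7, TNNT3 and CKM were highest there. Of the smooth muscle markers MYH11, ACTA2, TAGLN and RGS5 were highest in library 1 and PDGFRB was not. The fibroblast sum of 651 FPKM there was mostly COL3A1 at 625, while PDGFRA, at 25.9, was below its mean of 26.3. The fibroblast sum was nearly as high in library 4, at 641 FPKM, where PRKAG2 was 2.84 FPKM. Library 3 had the second highest smooth muscle sum, 70.1 FPKM, and the lowest PRKAG2. The part of these cells in the PRKAG2 values was not tested. Library 4, with the highest PRKAA1 and PRKAB2, also had the highest muscle fibre marker sum, 19300 FPKM, and the highest summed FPKM of the table. Only TNNC1 and MYLPF of the 8 fibre markers were highest in library 4, and TNNT3 and RYR1 were lowest there.

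Of the kinases that act on AMPK and their partners, 5 of 8 genes were listed. Of the 4 with a mean of at least 1 FPKM, 3 lay below PRKAA1 in 5 of 5 libraries and 1 above it, where 40.1% and 32.7% of all detected genes did so; CAB39, under 1 FPKM, was also below. MAP3K7, a kinase reported to activate AMPK, was even, at 11.2, 11.4, 11.6, 11.3 and 10.9 FPKM in libraries 1 to 5. It was above PRKAA1 in every library, by 1.102 to 2.04 times, and closest in library 4. With only the highest transcript of each gene it was above PRKAA1 in 4 of 5 libraries and below it in library 4, and the mean log2 ratio of PRKAA1 over MAP3K7 was -0.34 (exact permutation test, p = 0.125). CAMKK2, the calcium-dependent kinase that phosphorylates the activation loop, stood at 4.89, 3.39, 3.02, 2.11 and 3.40 FPKM. It was highest in library 1, where PRKAA1 was lowest, and lowest in library 4, where PRKAA1 was highest. The ratio of PRKAA1 to CAMKK2 thus ran from 1.13 to 4.86. How many detected genes had the same or opposite extremes was not counted.

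STK11, the gene of the main activating kinase LKB1, was not analysed here, but genes of its partners were listed. STRADA, the gene of the pseudokinase that activates LKB1, averaged 1.22 ± 0.5004 FPKM. The scaffold genes CAB39L and CAB39 averaged 3.32 ± 1.34 and 0.776 ± 0.295 FPKM (SD, n = 5). CAB39L stood at 5.68 FPKM in library 5, close to PRKAA1 at 6.02, and between 2.38 and 2.95 in the rest. The mean log2 ratio of PRKAA1 was 1.90 ± 0.56 over STRADA, 2.21 ± 0.27 over CAB39, 0.95 ± 0.60 over CAB39L, 0.92 ± 0.62 over CAMKK2 and -0.60 ± 0.29 over MAP3K7 (SD, n = 5; exact two-sided sign-flip permutation test, p = 0.0625 for each of the 5 pairs). With only the highest transcript the ratio was 1.91 over CAMKK2 and 1.51 over CAB39L. All 5 pairs share PRKAA1, and for STRADA, CAB39, CAB39L and CAMKK2 some lower-numbered transcripts were not analysed here, so those ratios may be too high.

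Beyond these kinases, 41 of 70 genes chosen around AMPK were listed, and PRKAA1 lay in the middle of them. Among modulators and phosphatases PPM1A, which encodes a phosphatase that can remove the activating phosphate, averaged 60.2 ± 6.94 FPKM and FNIP1, a partner of folliculin that binds AMPK, 41.5 ± 4.30 FPKM (SD, n = 5). The sestrin gene SESN3 averaged 31.9 ± 10.1 FPKM. All 3, named for the highest means of their list, were above PRKAA1 in every library, as were 32.7% of all detected genes. PPM1A and FNIP1 were also above PRKAA2 in the mean. PPP2CB, a catalytic subunit of phosphatase 2A, averaged 6.85 ± 1.89 FPKM and was lowest in library 4, at 3.66, where PRKAA1 was highest. How many other genes were lowest in library 4 was not counted.

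Targets of the kinase spanned levels on both sides of PRKAA1. Among all detected genes 32.7% were above PRKAA1 and 40.1% below it in every library. Of the lipid genes SREBF1, which encodes a transcription factor of fat synthesis, averaged 32.5 ± 7.81 FPKM and lay above PRKAA1 in 5 of 5 libraries. PLD1, a phospholipase D gene, averaged 6.13 ± 0.796 FPKM. The acetyl-CoA carboxylase genes ACACA and ACACB averaged 3.53 ± 1.44 and 1.67 ± 0.665 FPKM, each below PRKAA1 in every library (SD, n = 5). PFKFB3, a regulator of glycolysis, averaged 17.1 ± 7.52 FPKM, PFKFB2 9.85 ± 3.05 and TBC1D1, a brake on glucose uptake that AMPK releases, 7.27 ± 1.43. Of the growth and autophagy genes TSC2 and ULK1 were listed, at 4.89 ± 1.30 and 3.32 ± 0.743 FPKM, both below PRKAA1 in every library. MFF, of mitochondrial fission, averaged 16.3 ± 1.88 FPKM, FOXO3 11.6 ± 2.02 and HDAC7 9.54 ± 2.59, while HDAC5 was under 1 FPKM. PPARGC1A, which encodes the coactivator of mitochondrial biogenesis PGC-1 alpha, stood at 3.48, 3.47, 1.38, 1.247 and 0.316 FPKM in libraries 1 to 5, below PRKAA1 in each, and was named after its values had been seen, as was ACACB.

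Kinases related to AMPK in sequence lay on both sides of PRKAA1. SNRK at 15.2 ± 2.5 FPKM and MARK3 at 9.88 ± 0.940 exceeded it in 5 of 5 libraries (SD, n = 5), as did 32.7% of all detected genes. Of the 4 with a mean of at least 1 FPKM, only MARK4 was below it in 5 of 5, against 40.1% of all detected genes. SIK3 averaged 4.01 ± 1.97 FPKM, and SIK2, HUNK, BRSK1, MARK2 and MELK averaged under 1 FPKM. AK1, the adenylate kinase that makes AMP from ADP in muscle, averaged 109 ± 46.8 FPKM. Like PRKAA1, AK1 was lowest in library 1 at 66.5 and highest in library 4 at 189. The number of detected genes with these extremes was not counted. CKM averaged 16.2 ± 12.3 FPKM and ADSSL1 5.93 ± 2.68. Subunits of protein kinase A, which share the symbol prefix but form another kinase, were led by the regulatory genes PRKAR2A at 79.1 ± 10.1 and PRKAR1A at 44.4 ± 3.94 FPKM, with PRKAR2B at 4.97 ± 0.752 and the catalytic gene PRKACB under 1.

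Over the 9 lists 46 of 78 genes were listed and 38 averaged at least 1 FPKM, of which 3 had a library standing apart, against 7.37% of detected genes. Of those 38 genes 12 (31.6%) were above PRKAA1 and 15 (39.5%) below it in all 5 libraries, close to the 32.7% and 40.1% of all detected genes. Of the 46 genes 27 lacked some lower-numbered transcript in the table, against 2 of the 7 subunit genes and 34.7% of all numbered genes, so low levels in these lists may be partial sums.

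**Figure D5:**
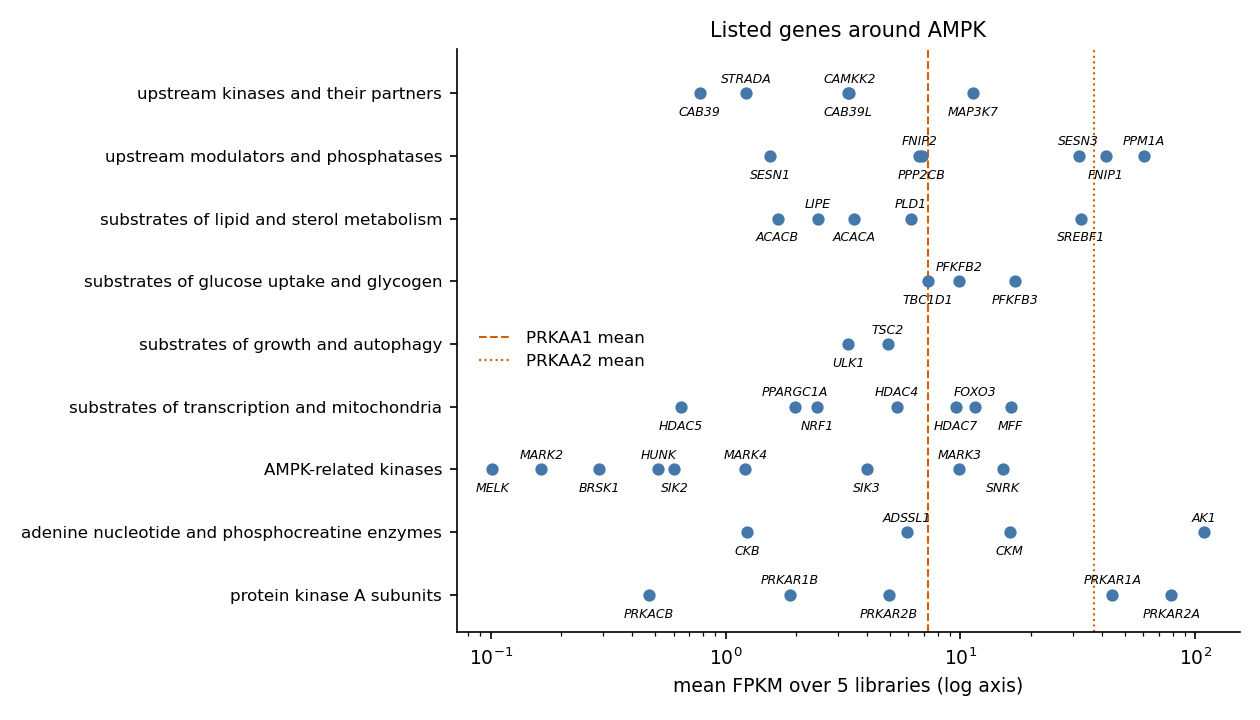
Mean FPKM over 5 libraries (log axis) of the 46 listed genes around AMPK, 1 point per gene and 1 row per list; the dashed and dotted lines mark the means of PRKAA1 and PRKAA2. The 5 genes to the right of PRKAA2 are FNIP1, PRKAR1A, PPM1A, PRKAR2A and AK1.

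The genes whose pattern over the 5 libraries was most like that of PRKAA1 were PRXL2B, MRPS9, CA11, PPA2 and NDUFS4. Likeness was the root mean square difference of the centred log2(FPKM + 1) values over 5 libraries, among 4174 named detected genes with an SD of at least that of PRKAA1 divided by 2. The difference was 0.045 for PRXL2B, a peroxiredoxin-like gene, 0.049 for MRPS9, of the mitochondrial ribosome, 0.064 for CA11, 0.067 for PPA2, a mitochondrial pyrophosphatase, and 0.069 for NDUFS4, a subunit of respiratory complex I. The median over all ranked genes was 0.37. NDUFS4 stood at 66.0, 81.1, 91.9, 121 and 79.9 FPKM in libraries 1 to 5. Like PRKAA1, it was lowest in library 1 and highest in library 4. The summed FPKM per library had the same extremes, 193706 and 223251. The nearest genes were not sought again with rescaled libraries. The set was not stable: with 1 library left out in turn, 0 to 2 of the 5 genes were again among the nearest.

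None of the other AMPK subunit genes was among the 5 nearest to PRKAA1. PRKAB1 ranked 454th of 4174, with a difference of 0.19, PRKAB2 957th with 0.25, PRKAA2 1986th with 0.36 and PRKAG2 3751st with 0.71. PRKAG1 had too small an SD to be ranked, and PRKAG3 was under the detection limit. No listed transcript of another gene overlapped the span of any of the 7 subunit genes.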

How the data were processed

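Total RNA of 5 longissimus dorsi samples was sequenced, with 1 library per animal. Per the file headers, the authors deposited 1 FPKM value per transcript in each library. HTSeq 0.6.0, DESeq2 1.10.1 and the build UMD3.1 appear in the submitters' processing notes, with no role stated by the authors; the aligner, FPKM estimator and annotation are not given in the sources used here. The build of the coordinates is in doubt: all 7 genes matched a RefSeq table of ARS-UCD2.0 by symbol and overlapped it in position, so no build is claimed for the coordinates.

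Transcript FPKM were summed per gene identifier. Detected genes had a mean of at least 1 FPKM, and logs were log2(FPKM + 1), which understates ratios of low genes. Pairs (5 within a class, 5 of PRKAA1 with upstream genes, 1 of transcripts) were tested by flipping the signs of the 5 libraries in every way (exact two-sided permutation test), which cannot go below 0.0625; p-values are raw, since no adjustment could bring them under 0.05. Neighbours in level were added after the values had been seen and were not tested. Dixon's limit was 0.71 for 5 libraries and 0.829 for 4. The scripts, in Python 3.11.15 (matplotlib 3.10.9, scipy 1.17.1, pandas 2.3.3, numpy 2.4.6), were tested on simulated data.

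The members, lists and rules were chosen with earlier results of these data known. The rule named each subunit gene and transcript, every upstream kinase gene, the 3 highest of each list, genes under 1 FPKM, genes with a library apart, and the 5 genes nearest to PRKAA1. ACACB and PPARGC1A were named after their values were seen. Alternatives were a pseudocount of 0.1, rescaling each library to the mean total (as TPM does), median-ratio size factors, the highest transcript only, other detection limits, and leaving out each library. No sequence is printed, and no column was left unmapped.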

Additional observations from a re-analysis of the deposited data

Results flagged for a closer look

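A library stood apart by Dixon's gap ratio in 9 of 85 values examined (genes, pairs, class sums and shares, many of them overlapping); chance alone marks about 5% of groups of 5, and 7.37% of all detected genes were marked. Library 1 accounted for 7 of the 9. Among the subunit genes, PRKAB1 was at 6.07 FPKM in library 1, below the other 4. The gamma subunit sum was 12.002 FPKM there, gamma took 17.3% of the 7-gene sum, and the alpha sum was 3.16 times the gamma sum, against 5.57 to 5.92 times elsewhere; PRKAG2 enters all 3, so they are not independent. The log2 ratio of PRKAG2 over PRKAG3 was 2.58 in library 1. Outside the family, PRKAR2A was at 61.2 FPKM in library 1 and MARK2 at 0.636, CAB39L was at 5.68 in library 5 and PPP2CB at 3.66 in library 4. Library 1 also had the highest smooth muscle, endothelial and leukocyte marker sums and the lowest muscle fibre sum. Its summed FPKM over the table was the lowest too, 193706, and the marker sums were not rescaled to it. The endothelial sum, 90.3 FPKM, was close to the 89.3 of library 5, and CDH5 and PECAM1 were not highest in library 1. Of the fibre markers TNNC1, MYLPF and MB were lowest in library 1, while MYH7, TNNT3 and CKM were highest there. The part of these cells was not tested.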

How the results depend on the processing

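Of 336 recomputed values 310 were counted as unchanged. Pair ratios were judged by sign alone, since p could not fall under 0.05. Means, shares and ranks had to stay within the SD between libraries, and counts and SDs within 1.5 times. A pair ratio counted as unchanged could thus move beyond its SD. With a pseudocount of 0.1, PRKAG1 over PRKAG3 was 3.08 against 1.89 ± 0.27, and PRKAA1 over CAB39 was 3.12 against 2.21 ± 0.27. Of the 310 values 35 equal the first value and are no sign of stability. Many do so by construction, as for genes with 1 transcript or shares under rescaling. The mean log2 ratio of every pair kept its sign under all alternatives except for PRKAG1 over PRKAG2, whose mean log2 ratio ran from -0.028 (without library 3) to 0.42 (without library 1). The count of genes with a library apart, 452, was 254 at a limit of 5 FPKM and 773 with no limit, where other numbers of genes were tested. PRKAA1 over MAP3K7 was -0.34 with the highest transcript only, with 4 of 5 libraries in that direction. The other changes concern ranks, SDs without 1 library, the SD of PRKAG3 with a pseudocount of 0.1 (0.40 against 0.15) and the genes nearest to PRKAA1. The share of genes below PRKAA1 was 21.0% with a limit of 5 FPKM and 68.8% with none. No paired analysis between conditions was possible because the samples form 1 group. The pair ratios set genes against each other within the same library. With 5 libraries no pair could reach p under 0.05, with 4 not under 0.125 in the exact test, so these p-values say nothing of stability. Read depth is unknown, and transcripts not analysed here limit the levels of PRKAB2 and PRKAG3.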
